A study of Daphnia magna with 45 samples.

Results

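Whole bodies of the water flea Daphnia magna were compared after 6 h of exposure to 2 compounds together, 1 mg/L propranolol with 100 mg/L isoprenaline (the mixture), and at 6 h in the control. All animals were females of the strain Xinb3 aged 5 days, and the exposures began with 20 animals in 35 mL of solution. The comparison rests on 6 of the 45 libraries of the series, 3 of the mixture and 3 of the control, taken by their titles. The labels do not say what the control solution held, whether replicates came from separate solutions or how many animals gave each RNA sample. The p-values therefore measure differences against the spread between libraries, part of which may be technical. In the main fit that spread was estimated over all 16 groups of the series, not only from these 6 libraries. The other groups drawn on below were, at 6 h, isoprenaline alone at 100 mg/L (3 libraries), propranolol alone at 1 mg/L (3) and propranolol alone at 4 mg/L (2), with the mixture, the single compounds and the control also at 1 h, control libraries at 0, 3 and 24 h, propranolol at 1 mg/L at 3 and 24 h and propranolol at 4 mg/L at 24 h.

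Propranolol blocks beta-adrenergic receptors and isoprenaline activates them. In vertebrates these receptors act through G proteins, adenylate cyclase and cyclic AMP, and they raise the rate and force of the heartbeat. Arthropods such as Daphnia use octopamine and tyramine where vertebrates use adrenaline and noradrenaline, and their receptors for these amines are related to the adrenergic ones. Isoprenaline is a catecholamine and propranolol an aryloxypropanolamine with a naphthalene ring, and both carry an isopropyl group on the amine. The series set whole-body expression beside cardiac structure and function, and the comparison below asks how transcript levels at 6 h differed when the blocker and the activator were given together.

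The deposited values are CPM, reads of an ID per 1000000 reads of the library, for 19159 IDs. None of the IDs matched the RefSeq table of 28335 genes (0 matched), so genes are given by ID with no name or role, no gene list or tissue marker was read, and 4 IDs are printed, 2 that rose and 2 that fell. The mixture libraries held 23.2, 22.8 and 23.7 M reads and the control libraries 16.9, 18.9 and 21.2 M, so every mixture library was deeper than every control library. The 10 most abundant IDs took 10.4% to 12.5% of a mixture library and 14.3% to 20.7% of a control library. For both measures an exact permutation test of 3 against 3 libraries gave a two-sided p of 0.1, the smallest it allows, and their part in the results below was not tested. The libraries did not separate by exposure as whole profiles: across IDs, none of them an independent replicate, Pearson's r of log2(CPM + 1) was 0.847 to 0.962 between a mixture and a control library and 0.89 to 0.966 within a group.

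After 6 h in the mixture, 271 IDs (1.41% of 19159) were lower and 49 (0.256%) higher than in the control, 320 calls in all (1.67%), with 2859 IDs (14.9%) at an unadjusted p under 0.05. The falls were the larger changes. Their median was -1.44 on the log2(CPM + 1) scale, a scale that understates the change of low IDs, with quartiles of -1.97 and -1.0, and the extreme was -7.39. The rises had a median of 0.70, quartiles of 0.59 and 0.95, and reached 1.65. The median SE was 0.325 for the falls and 0.161 for the rises. A call needs a difference of several SE, so the gap in size is in part set by the threshold. At least 1 log2 unit was reached by 205 falls and 10 rises, at least 2 units by 67 falls and 0 rises, and at least 3 units by 20 falls. A call is an ID with a Benjamini-Hochberg adjusted p under 0.05 in limma, in a fit of all 16 groups of exposure and hour that share their estimate of spread. edgeR on the whole reads called 283 lower and 99 higher (1.99% of IDs in all), and 235 of the 271 falls and 44 of the 49 rises were among them. The count leaned on the fit: limma called 82 IDs (0.428%), all lower, with only the 5 groups of 6 h, and 0 with only the mixture and control libraries (2217 at an unadjusted p under 0.05). In whole-body RNA, fewer cells of a type and less RNA per cell cannot be told apart.

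**Figure D1:**
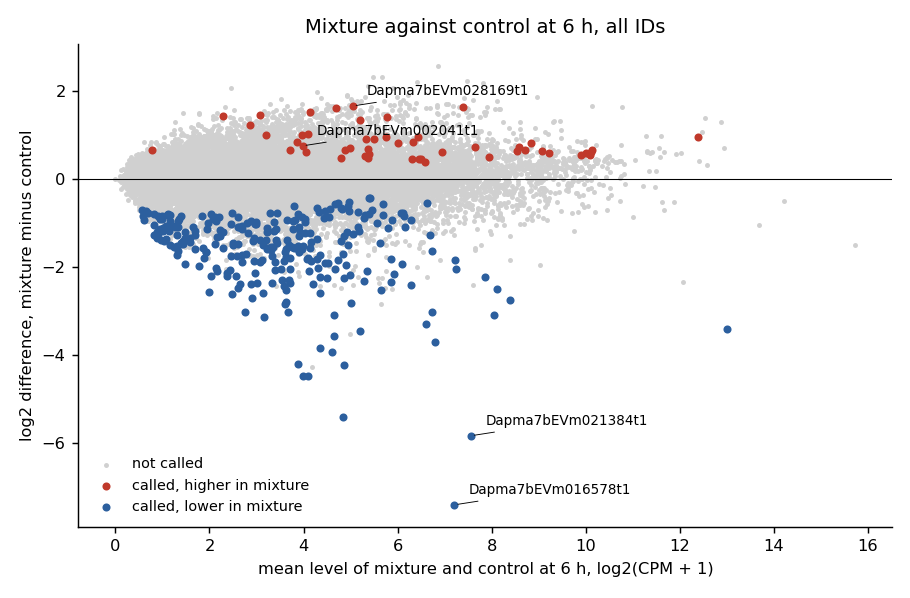
Each point is an ID, with its mean level in the 6 libraries on the x axis, as log2(CPM + 1), and the log2 difference of mixture minus control at 6 h on the y axis. The 271 IDs called lower reach down to -7.39, whereas the 49 called higher reach 1.65 and lie mostly at higher levels.

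The direction of calls differed along the range of levels. Over the 6 libraries, falls made up 1.48% of the 5931 IDs with a mean of up to 5 CPM, 1.56% of the 9846 IDs at 5 to 50 CPM and 0.901% of the 3106 IDs at 50 to 500 CPM. Rises made up 0.0337%, 0.223% and 0.547% of the same IDs. Among the 276 IDs above 500 CPM, 1 fell (0.362%) and 8 rose (2.9%). These shares were read in the fit of all 16 groups only, and with only the 6 h groups in the fit 0 IDs were called higher. The median level over the 6 libraries was 53.1 CPM for the risers and 9.63 CPM for the fallers.

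Individual libraries of both groups were well apart for most calls. In 267 of the 271 falls every mixture library was below every control library, which held for 12.2% of all IDs, and in 47 of the 49 rises every mixture library was above every control library, which held for 4.97% of all IDs. These counts describe the calls and do not add to them, since the same values made the call. Replicates were uneven inside the groups. Mixture replicate 2 was the highest mixture library for 208 of the 271 falls. Control replicate 2 was the highest control library for 169 of them and control replicate 1 the lowest for 199. For 45 of the 49 rises control replicate 1 was the highest control library, nearest to the mixture. The rankings of replicates were not counted over all IDs, so they are not shown to be particular to the called IDs. Over the fallers the median SD of log2(CPM + 1) was 0.233 in the mixture and 0.345 in the control, against 0.272 and 0.319 over all IDs. The added 1 narrows the spread of low IDs, and the median level of the fallers was 2.20 in the mixture and 3.96 in the control. Calls also favour IDs of low spread, so these SDs do not show that the fallers were steadier in the mixture.

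The largest fall was that of Dapma7bEVm016578t1, which also had the smallest p of all falls with a mean of at least 5 CPM. It was at 0.259, 0.307 and 0.338 CPM in the mixture libraries, against 74.98, 558 and 246 CPM in the control libraries. The transcript was thus near the floor in all mixture libraries, where 3 reads stand for 0.127 to 0.131 CPM, and varied widely among the control libraries. The limma log2 change was -7.39 (SE 0.999, 95% interval -9.43 to -5.36, adjusted p 0.000463), and edgeR gave -9.92 (adjusted p 0.000582). From pooled reads, 21 in the mixture and 17040 in the control, its share of reads was 992-fold lower in the mixture (649 to 1603, exact binomial interval, counting error only). Control replicate 2 held 10567 of the control reads, and without it the share was 564-fold lower.

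Dapma7bEVm021384t1 had the next largest fall. It was at 4.27, 5.52 and 2.83 CPM in the mixture, against 111, 688 and 311 CPM in the control. The control libraries ranked as for Dapma7bEVm016578t1, with replicate 2 highest and replicate 1 lowest. Its log2 change was -5.83 (SE 0.957, 95% interval -7.78 to -3.88, limma adjusted p 0.00151), and edgeR gave -6.50 (adjusted p 0.00245). Pooled reads numbered 292 in the mixture and 21487 in the control, a share 89.9-fold lower in the mixture (80.1 to 101.3, counting error only) and 53.1-fold lower without control replicate 2. In the control libraries this ID stood at 1.23 to 1.48 times the level of Dapma7bEVm016578t1, while in the mixture libraries the ratio was 8.38 to 18.0, from few reads of the lower ID. Both falls passed in all 6 fits that left out a library (limma adjusted p up to 0.0204 for Dapma7bEVm016578t1 and 0.0366 for Dapma7bEVm021384t1). Neither passed with only the mixture and control libraries in the fit (0.121 for each).

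A small set of IDs was close to undetected in the mixture while clearly present in the control. With a mean of at least 5 CPM in the control libraries and under 1 CPM in every mixture library there were 14 IDs (0.0731% of 19159), 13 of them called. Together they summed to 3.37, 4.73 and 3.42 CPM in the mixture libraries, against 173, 960 and 469 CPM in the control libraries, a sum in which Dapma7bEVm016578t1 weighs most. Control means ranged from 5.30 to 293 CPM with a median of 10.5 CPM. In 11 of the 14 the highest control library was replicate 2, a ranking not counted over all IDs. The opposite pattern, a mean of at least 5 CPM in the mixture with every control library under 1 CPM, was met by 0 IDs. The split was made after these data had been seen, and the thresholds follow the 5 CPM of the naming rule and the 1 CPM of the filter.

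The same 14 IDs were looked up in the other groups. All libraries were under 1 CPM for 12 of the 14 in the mixture at 1 h, for 13 with isoprenaline at 6 h, for 13 with isoprenaline at 1 h, and for 9 and 10 with propranolol 4 mg/L at 6 and 1 h. With propranolol 1 mg/L this held for 2 of the 14 at 6 h and 3 at 1 h. In the control it held for 8 in the lone library at 0 h, 2 at 1 h, 4 at 3 h and 1 at 24 h. The median of their mean levels was 0.26 CPM in the mixture at 6 h, 0.19 CPM with isoprenaline at 6 h and 9.59 CPM with propranolol 1 mg/L at 6 h. In the control it was 0.75 CPM at 0 h, 2.56 at 1 h, 4.15 at 3 h and 5.85 at 24 h, against the 10.5 CPM of 6 h that entered the choice.

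As a share of all reads, the 271 fallers took 0.328%, 0.524% and 0.331% of the mixture libraries, against 1.67%, 2.57% and 3.13% of the control libraries. The mean share was 0.395% ± 0.112 in the mixture and 2.46% ± 0.735 in the control (SD, n = 3 each), 6.23 times lower in the mixture. A single ID held 61.0% of the control sum, with a mean of 1423 ± 612 CPM in the mixture and 15007 ± 5907 CPM in the control. Without it the shares were 0.252% ± 0.0513 in the mixture and 0.958% ± 0.304 in the control, 3.80 times lower in the mixture. These IDs were chosen because the same 6 libraries differed, so the gaps between the sums describe the size of the calls and add no support to them. Of the 271, 11 IDs had 3 reads or fewer in each mixture library, and none had that few in each control library.

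The 49 risers, chosen in the same way, took 2.20%, 1.75% and 1.79% of the mixture libraries, against 1.51%, 0.936% and 1.04% of the control libraries. The mean was 1.91% ± 0.246 in the mixture and 1.16% ± 0.306 in the control (SD, n = 3 each), 1.65 times higher in the mixture, and 1.56 times higher without the most abundant riser, which held 36.3% of the mixture sum. Mixture replicate 1 had the highest value of the group for 37 of the 49, a ranking not counted over all IDs.

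**Figure D2:**
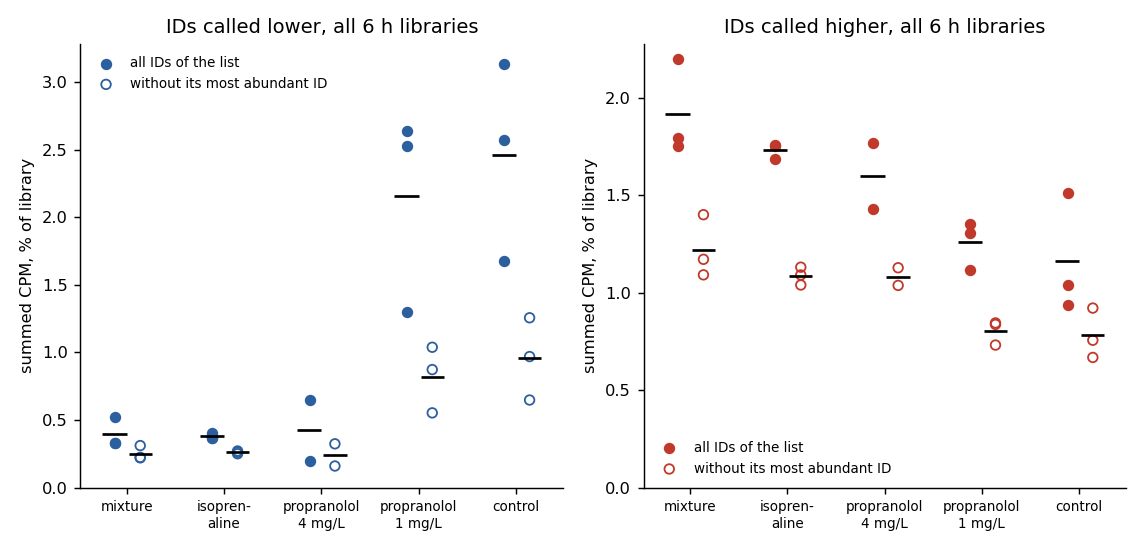
The y axes give the summed CPM of the 271 IDs called lower (left) and the 49 called higher (right) as a percentage of each 6 h library, filled points with all IDs of the list and open points without its most abundant ID, with lines at group means. The 3 mixture libraries sit at 0.328% to 0.524% and the 3 control libraries at 1.67% to 3.13% for the fallers, and at 1.75% to 2.20% and 0.936% to 1.51% for the risers.

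The rise with the smallest p was small and even. Dapma7bEVm002041t1 was at 20.9, 19.1 and 16.4 CPM in the mixture, against 11.6, 9.77 and 10.9 CPM in the control. All mixture libraries were above all control libraries, and the spread inside each group was narrow (18.8 ± 2.27 CPM in the mixture and 10.8 ± 0.916 CPM in the control, SD, n = 3 each). Its log2 change was 0.75 (SE 0.118, 95% interval 0.51 to 0.99, limma adjusted p 0.000955), with 0.85 in edgeR (adjusted p 0.000345). By size it was rank 20 of the 46 risers that met the naming rule. It passed in all 6 fits with a library left out (limma adjusted p up to 0.0231) but not with only the 6 h groups (0.0643) or only the mixture and control libraries (0.21).

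The largest rise was less even. Dapma7bEVm028169t1 was at 51.0, 69.0 and 25.8 CPM in the mixture, against 19.2, 6.07 and 21.0 CPM in the control. Mixture replicate 3 lay not far above control replicates 1 and 3, and control replicate 2 was well below both. The log2 change was 1.65 (SE 0.387, 95% interval 0.86 to 2.44, limma adjusted p 0.0234), with 1.70 in edgeR (adjusted p 0.0106). It missed the threshold without mixture replicate 1 (limma adjusted p 0.152), without mixture replicate 2 (0.0971) and without control replicate 2 (0.271, with a log2 change of 1.13), with only the 6 h groups (0.202) and with only the mixture and control libraries (0.336).

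**Figure D3:**
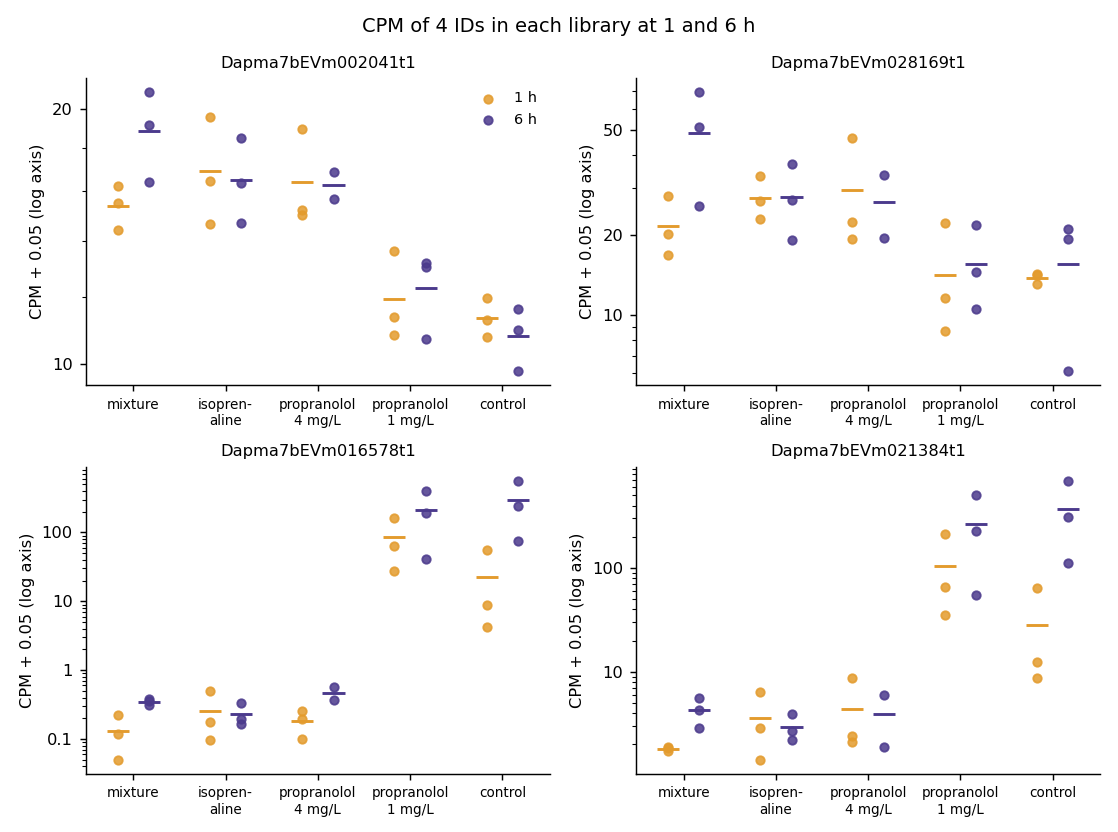
Each point is the CPM of a library on a log axis, with 0.05 added so that a value of 0 can be drawn, at 1 h (orange) and 6 h (violet) in each exposure, and lines mark group means. The upper panels show the IDs that rose and the lower panels those that fell in the mixture at 6 h; in the lower panels the mixture, isoprenaline and propranolol 4 mg/L libraries of 6 h lie far below the propranolol 1 mg/L and control libraries of 6 h.

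At 1 h no ID passed between the mixture and the control (0 calls in limma and in edgeR, with 621 and 760 at an unadjusted p under 0.05), but the IDs called at 6 h leaned the same way. The 1 h libraries are not among the 6 compared at 6 h, but they entered the shared spread of the fit that made the calls. Calls favour IDs of low spread, so the shares of groups that do not overlap are in part given by that choice. The median log2 difference at 1 h was -0.48 over the 271 fallers and 0.22 over the 49 risers, against -0.03 over all IDs. It was below 0 for 258 of the 271 and above 0 for 42 of the 49, whereas 56.1% of all IDs were below 0. All mixture libraries were below all control libraries at 1 h for 159 of the fallers (58.7%, against 13.4% of all IDs) and above them for 27 of the risers (55.1%, against 9.11% of all IDs).

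Between 1 and 6 h the fallers moved mainly in the control. Their median difference of 6 h minus 1 h was -0.15 in the mixture and 0.69 in the control, against 0.10 and 0.06 over all IDs. In the control 260 of the 271 (95.9%, against 54.8% of all IDs) were higher at 6 h than at 1 h by their means. For 151 of them (55.7%) the 3 control libraries of 6 h were all above those of 1 h, against 22.2% of all IDs. In the mixture 192 of the 271 (70.8%, against 39.8% of all IDs) had a lower mean at 6 h. The control values at 6 h entered the choice of these IDs, so high values there are in part given by it. All 3 control libraries of 6 h were above those of 3 h for 68 of the fallers (25.1%, against 9.69% of all IDs). The median of the fallers in the control stood at 3.48 on the log2(CPM + 1) scale, between 3.06 at 1 h and 3.96 at 6 h, and at 24 h it was 3.86. In the mixture it was 2.41 at 1 h and 2.20 at 6 h.

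For the risers the medians of 6 h minus 1 h were 0.31 in the mixture and -0.18 in the control. Their median level was 5.76 in the mixture at 1 h and 6.13 at 6 h, and in the control 6.19 at 0 h, 5.48 at 1 h, 5.53 at 3 h, 5.10 at 6 h and 5.43 at 24 h.

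**Figure D4:**
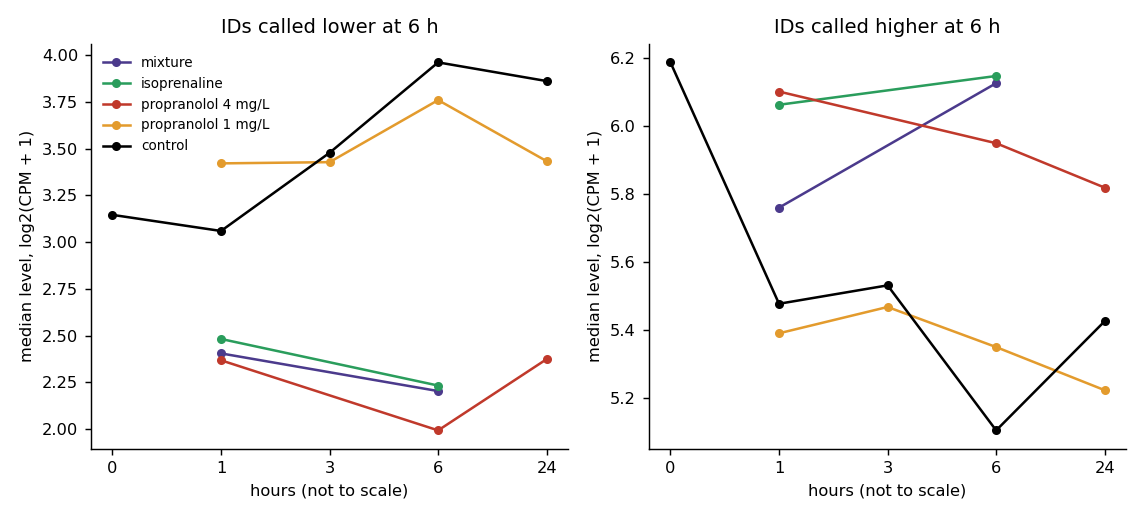
Lines join the median level, as log2(CPM + 1), of the 271 IDs called lower (left) and the 49 called higher (right) in mixture against control at 6 h, for each exposure at the hours sampled, which are evenly spaced and not to scale. In the left panel the control goes through 3.06, 3.48 and 3.96 at 1, 3 and 6 h while the mixture stays at 2.41 and 2.20; the 6 h values of mixture and control chose the IDs.

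The printed IDs did not all follow these medians: in the mixture both fallers had higher means at 6 h than at 1 h. In the control Dapma7bEVm016578t1 averaged 0.1 CPM in the lone library of 0 h, 22.7 CPM at 1 h, 46.2 CPM at 3 h, 293 CPM at 6 h and 113 CPM at 24 h, and in the mixture 0.0798 CPM at 1 h and 0.301 CPM at 6 h. The lone control library at 0 h held 2 reads of this ID, and the 3 mixture libraries together held 9 at 1 h and 21 at 6 h. All of these were near the floor, with too few reads to compare their levels. Dapma7bEVm021384t1 averaged 12.05 CPM at 0 h, 28.3 CPM at 1 h, 56.9 CPM at 3 h, 370 CPM at 6 h and 149 CPM at 24 h in the control, and 1.77 CPM at 1 h and 4.21 CPM at 6 h in the mixture. Its mixture level was below that of the 0 h library at both hours. Dapma7bEVm002041t1 was at 28.9 CPM in the control library of 0 h, above every mixture library of 6 h, and averaged 11.3, 11.0, 10.8 and 15.7 CPM at 1, 3, 6 and 24 h, against 15.3 CPM at 1 h and 18.8 CPM at 6 h in the mixture. Dapma7bEVm028169t1 averaged 21.6 CPM at 1 h and 48.6 CPM at 6 h in the mixture, and in the control 87.2 CPM at 0 h, 13.7 CPM at 1 h, 18.8 CPM at 3 h, 15.4 CPM at 6 h and 34.0 CPM at 24 h.

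The difference between the effects at 6 and 1 h was tested directly, as mixture minus control at 6 h less mixture minus control at 1 h. No ID passed (0 calls in limma and in edgeR, with 700 and 759 at an unadjusted p under 0.05). For Dapma7bEVm016578t1 it was -3.68 (95% interval -6.56 to -0.80, limma adjusted p 0.974) and for Dapma7bEVm002041t1 0.34 (SE 0.167, limma adjusted p 0.974). The calls at 6 h and their absence at 1 h are thus not shown to differ.

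The mixture was set beside its components at the same hour. Isoprenaline alone at the same 100 mg/L gave median log2 differences from control of -1.34 over the 271 fallers and 0.61 over the 49 risers, and propranolol alone at the same 1 mg/L gave -0.22 and 0.11. Propranolol at 4 mg/L, a dose not in the mixture, gave -1.56 and 0.54. The mixture itself stood at -1.44 and 0.70, and over all IDs the medians were 0.02 for the mixture, -0.04 for isoprenaline, -0.03 for propranolol 1 mg/L and -0.12 for propranolol 4 mg/L. These 4 comparisons share the control libraries that chose the IDs, so their likeness in direction is no separate observation.

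Direct contrasts leave out the control libraries but reuse the mixture libraries that helped choose the IDs, so the direction of the lists in them is in part given by that choice. The mixture minus isoprenaline had a median of -0.04 over the fallers and 0.14 over the risers (0.05 over all IDs). All mixture libraries were below all isoprenaline libraries for 25 of the 271 (9.23%, against 2.86% of all IDs) and above them for 5 of the 49 (10.2%, against 3.15%), and 0 IDs were called by limma or by edgeR (58 and 80 at an unadjusted p under 0.05). This does not show that both act alike: for Dapma7bEVm016578t1 the difference was 0.14 (95% interval -1.90 to 2.18) and for Dapma7bEVm028169t1 0.73 (95% interval -0.06 to 1.52), each with a limma adjusted p of 1. The mixture minus propranolol 1 mg/L had a median of -1.18 over the fallers and 0.64 over the risers (0.04 over all IDs). All mixture libraries were below all propranolol 1 mg/L libraries for 237 of the fallers (7.94% of all IDs) and above them for 44 of the risers (5.82% of all IDs). The contrast had 166 calls in limma (0.866% of IDs), 130 lower and 36 higher, but 24 with only the 6 h groups in the fit, 0 with only these libraries (1437 at an unadjusted p under 0.05), and 7, 53, 29 and 41 without mixture replicates 1 and 3 and propranolol replicates 2 and 3. The excess of lower calls was not kept throughout: there were 29 lower and 24 higher without mixture replicate 3, and 20 lower and 21 higher without propranolol replicate 3. Dapma7bEVm016578t1 was lower in the mixture than with propranolol 1 mg/L by a log2 difference of -6.84 (SE 0.999, limma adjusted p 0.00128), at 0.301 ± 0.0397 CPM in the mixture and 211 ± 179 CPM with propranolol 1 mg/L (SD, n = 3 each). Dapma7bEVm021384t1 differed by -5.20 (limma adjusted p 0.00533), Dapma7bEVm002041t1 by 0.58 (0.0122) and Dapma7bEVm028169t1 by 1.53 (0.0474).

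Isoprenaline minus propranolol 1 mg/L at 6 h shares no library with mixture minus control. Its libraries did enter the shared spread of the fit that chose the IDs, and calls favour IDs of low spread. The shares of groups that do not overlap are thus in part given by that choice. Over the 271 fallers its median was -1.08, over the 49 risers 0.52 and over all IDs -0.02. All isoprenaline libraries were below all propranolol 1 mg/L libraries for 238 of the fallers (87.8%, against 11.7% of all IDs), and above them for 44 of the risers (89.8%, against 9.97% of all IDs). This is a description of the lists in other libraries and carries no test.

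A further contrast set the mixture's log2 change against isoprenaline's plus that of propranolol 1 mg/L. It had no calls (0 in limma and in edgeR, 470 and 492 at an unadjusted p under 0.05, and 2 calls, both higher, without control replicate 3). The difference was 0.69 for Dapma7bEVm016578t1 (95% interval -2.19 to 3.58) and 0.01 for Dapma7bEVm002041t1 (95% interval -0.33 to 0.35). Isoprenaline alone already held Dapma7bEVm016578t1 near the floor, at a mean of 0.182 CPM at 6 h. The mixture could hardly take it lower, so its 0.69 cannot show a departure from the sum. The same limit holds for any ID near the floor with isoprenaline. The median SE of this contrast was 0.395, against 0.279 for mixture minus control.

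The count of calls was read again with each of the 6 libraries left out in turn. Each such fit had a group of 2 libraries and a median SE of 0.308 to 0.314, against 0.279 with all libraries. A lower count therefore does not measure the values of the missing library alone. The count was 41, 275 and 83 without mixture replicates 1, 2 and 3, and 736, 31 and 75 without control replicates 1, 2 and 3. Without control replicate 1 the balance changed to 334 higher and 402 lower. Of the 320 calls, 27 passed in each of the 6 fits, 25 lower and 2 higher, and edgeR called all 27. With only the 6 h groups in the fit 23 of the 27 passed. The 25 fallers had log2 changes of -7.39 to -0.85 with a median of -2.22, with group means of 0.0434 to 26.5 CPM in the mixture and 1.67 to 370 CPM in the control. All 320 kept their direction in each of the 6 fits and in edgeR, which adds no support. For 267 of the 271 falls and 47 of the 49 rises the groups did not overlap. Leaving out 1 library could not turn the direction of these, and edgeR used the same libraries.

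**Figure D5:**
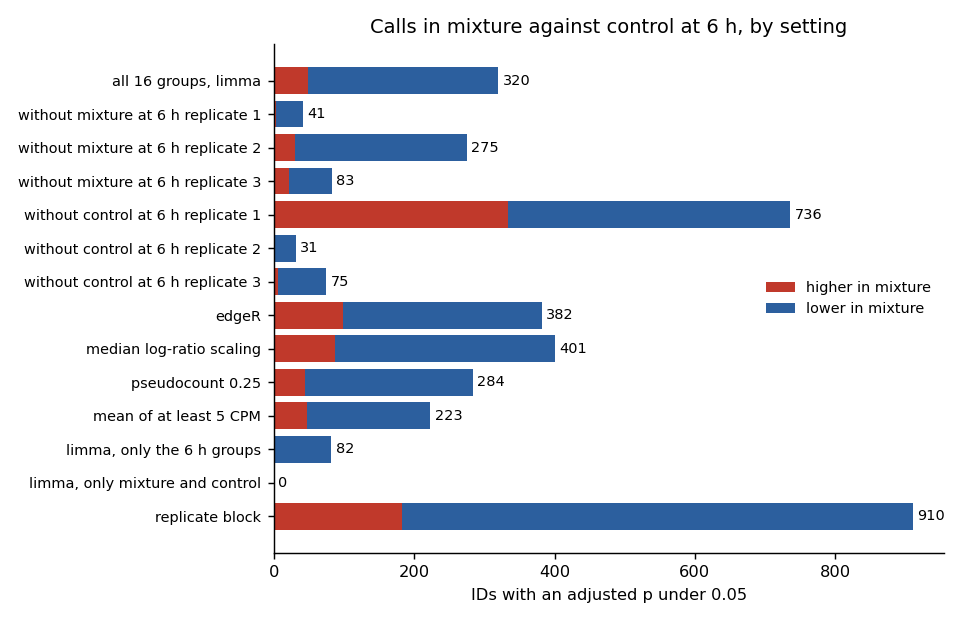
Bars give the number of IDs with an adjusted p under 0.05 in mixture against control at 6 h, higher in red and lower in blue. They are drawn for the limma fit of all 16 groups and for the other settings, except no filter and the replicate block with only the mixture and control libraries. Counts run from 0, with only the mixture and control libraries in the fit, to 910 with the replicate number as a block.

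For most IDs the interval at 6 h left out a difference of 1 unit on the log2(CPM + 1) scale. The unadjusted 95% interval of the log2 difference lay wholly inside 1 log2 unit either side of 0 for 11144 IDs (58.2%). The scale understates the change of low IDs, and 5931 IDs had a mean of up to 5 CPM, so this is no bound on their fold change. The intervals also use the spread shared by all 16 groups. Just inside the threshold the adjusted p was 0.0484 for the last riser and 0.0496 for the last faller, and just outside it 0.0502.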

How the data were processed

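Per the submitters' processing notes, the tools were edgeR, HTSeq, Bowtie2 2.1.0 and Trim Galore 0.3.2. The build is not given in the sources used here. Per the labels' protocols, a stranded kit for mRNA was used on 500 ng of total RNA. The deposited table holds CPM made by the authors, and each column sums to 1000000. All 862155 values (100%) were whole multiples of their library's smallest step (tolerance 0.01 read), so whole reads were recovered. Totals in the series ran from 13.5 to 43.7 M reads. Libraries were grouped by title (16 groups).

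Differences were tested with limma 3.58.1 (robust, with a trend; R 4.3.3) on log2(CPM + 1) with a mean for each group (29 degrees of freedom left) and Benjamini-Hochberg adjustment over all 19159 IDs. The filter, at least 1 CPM in at least 3 libraries, removed none. Alternatives were edgeR 4.0.16 (quasi-likelihood, TMM) on recovered reads, a pseudocount of 0.25, no filter, a mean of at least 5 CPM, fewer groups in the fit, scaling by the median log ratio, a block for replicate number within an hour and leaving out each library. Steps were tested on simulated data. Replicate pairs of the 2 groups differed beyond sampling noise, with a chi-square of 64.9 to 203 per degree of freedom, so none was a duplicate. The 95% intervals of log2 differences come from limma and its spread between libraries; those of pooled read shares, and floors of 3 reads, cover counting error only.

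IDs printed are, in each direction, those with the smallest p and the largest change among calls with groups that do not overlap and a mean of at least 5 CPM over the 6 libraries. Lists, members and tests were chosen with earlier results of these data known. Calls kept in all 6 fits, the set of 14 IDs and sums without an ID were added after seeing the data.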

Additional observations from a re-analysis of the deposited data

How the results depend on the processing

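Of the calls between mixture and control at 6 h (320, 49 higher and 271 lower), limma gave 0 higher and 0 lower with only these libraries in the fit, with or without the replicate block (2225 and 2217 at an unadjusted p under 0.05), and 82, 0 higher and 82 lower, with only the 6 h groups. edgeR gave 99 higher, scaling by the median log ratio 87 higher, and a mean of at least 5 CPM 175 lower, of 13400 IDs tested. Scaling moved the share of lower calls to 78.3% and edgeR to 74.1%, against 84.7%. Leaving out each library gave 31 to 736 calls, 2 to 334 higher and 29 to 402 lower. Against propranolol 1 mg/L (166, 36 higher and 130 lower) there were 0 calls, 0 higher and 0 lower, with only these libraries, and 24, 1 higher and 23 lower, with only the 6 h groups. edgeR gave 262, 92 of them higher, and scaling 68 higher. Leaving out each library gave 7 to 211 calls, 1 to 34 higher and 6 to 177 lower. The departure from the sum of single effects had 0 to 2 calls, 0 to 2 of them higher, when libraries were left out. Where no cause is given above, the cause was not tested.

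Replicate numbers are shared between groups, but the labels do not say that they pair libraries: deviations of same-numbered mixture and control libraries from their group means correlated at 0.022, 0.528 and -0.545. With the replicate block in the fit of all groups there were 910 calls (182 higher, 728 lower) against control, which include all 320, and 459 (114 higher, 345 lower) against propranolol 1 mg/L. Without propranolol replicate 3 the balance against propranolol 1 mg/L turned, to 21 higher and 20 lower. The no-filter setting changed nothing, since the table had already passed the filter. The median SE over all IDs was 0.279, and a call needs a difference of several SE, so small differences were not detectable for most IDs. Of the fallers, 11 had 3 reads or fewer in each mixture library, so the size of their fall is limited by depth.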

Other observations

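The lone control library at 0 h entered no test of its own. The 271 IDs called lower in the mixture at 6 h summed to 0.75% of its reads, and the 49 called higher to 1.45%. By group means, the fallers summed to 0.435% ± 0.0623 in the mixture at 1 h and 1.16% ± 0.384 in the control at 1 h (SD, n = 3 each). The risers summed to 1.43% ± 0.0861 in the mixture at 1 h and 1.26% ± 0.0156 in the control at 1 h (SD, n = 3 each). At 24 h in the control the sums were 2.34% ± 0.637 for the fallers and 1.34% ± 0.122 for the risers (SD, n = 3).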
